A study of Mus musculus with 6 samples.

Results

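The solute carrier family 25 (Slc25) consists mainly of carriers that move metabolites across the inner mitochondrial membrane. This account follows the family's RNA in small-intestinal epithelial cells with and without the transcription factor c-Maf. Members were the protein-coding genes whose symbol is Slc25a followed by a number, leaving out Slc25a20 and Slc25a37, which gave 42 genes of 23390 in the deposited table. The rule used no measured value. Libraries came from viable cells of the small intestine of C57BL/6 mice, sorted by flow cytometry as negative for the leukocyte marker CD45 and positive for the epithelial marker EpCAM. Controls were 3 libraries from Maf.flox mice, which carry floxed Maf without Cre, and the other group was 3 libraries from Vil.Cre Maf.flox mice, in which the villin promoter drives Cre in the intestinal epithelium. Both groups thus carry the floxed allele, and no group carried Cre without it, so what Cre alone does and what losing Maf does cannot be told apart. Nothing in the labels says that each library is a separate animal. All p-values therefore measure the spread between these samples, which may be technical.

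Mitochondrial carriers are small membrane proteins built from repeats of one carrier fold, and most move a restricted set of substrates between cytosol and mitochondrial matrix. They link ATP export to respiration, feed carboxylates and amino acids into and out of the matrix, and bring in cofactors that the matrix does not make. Enterocytes use much glutamine as fuel and turn part of it into ornithine and citrulline in mitochondria, so that glutamate and ornithine carriers stand on a pathway for which this tissue is known.

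Total counts were 17464355 to 24802525 per library, and levels below are given as CPM, counts scaled to library size with TMM (trimmed mean of M values) factors. The targeted gene, Maf, had 3893 to 9398 counts per control library and 1 to 16 per Vil.Cre Maf.flox library. Epcam stood at 1922 to 2305 CPM in the 6 libraries, while the leukocyte gene Ptprc (CD45) was at most 2.29 CPM. All 9 enterocyte markers had a log2 fold change below 0 in Vil.Cre Maf.flox, with Lct and Anpep passing an adjusted p of 0.05. Their summed level was 25000, 23800 and 11980 CPM in Maf.flox replicates 1, 2 and 3 and 6371 to 10520 CPM in Vil.Cre Maf.flox. In these bulk libraries fewer cells of a type and less RNA per cell cannot be told apart. Maf.flox replicate 3 had the lowest enterocyte and the highest Paneth cell sum of the controls (31700 CPM against 5117 and 16970). Paneth cell markers summed to 7126 to 10160 CPM in Vil.Cre Maf.flox. Other sums set another control apart, as enteroendocrine markers stood highest in Maf.flox replicate 2 (834 CPM against 453 and 306.5). Results that rest on Maf.flox replicate 3 are given with and without it.

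None of the 38 members that passed the filter on low counts was called at an adjusted p of 0.05 in Vil.Cre Maf.flox against Maf.flox (quasi-likelihood F test of edgeR, Benjamini-Hochberg adjustment over 13740 genes), where 0.546% of all genes tested were called, 0.189% higher and 0.357% lower. An unadjusted p under 0.05 by edgeR was found for 9 members, and these 9 had lower values in Vil.Cre Maf.flox. They make up 23.7% of the members tested, where 9.25% of all genes tested had such a p and were lower, while 0 members and 7.11% of all genes had such a p and were higher. DESeq2 called 5 members (Slc25a15, Slc25a4, Slc25a36, Slc25a51 and Slc25a45), each lower, with 5.53% of all genes called, and limma-voom called 0 with 0.218% of all genes called. An unadjusted p under 0.05 was found for 10 members by DESeq2 and 7 by limma-voom, all lower. The share of all genes with such a p was not computed for these methods, so these counts cannot be set against a background. The median log2 fold change was -0.04 over the members and -0.01 over all genes tested, with 22 members below 0 and 16 above (51.6 and 48.4% of all genes). No member stood at 1 or more on the log2 scale in the higher direction, and 2 stood at -1 or less (Slc25a45 and Slc25a48), where 4.55% of all genes were at least 1 from 0 in either direction.

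Calls of members differed between settings. Slc25a15 was also called with upper quartile scaling (0.750% of all genes called), Slc25a15, Slc25a4 and Slc25a36 at an FDR of 0.1 (2.71%), and these with Slc25a51 with no filter (1.58%) or with a replicate block (3.20%). No member was called with RLE scaling (0.568%), a stricter filter (0.462%), an FDR of 0.01 (0.0146%) or a term for sex (0.277%). Sex is not in the labels and was read from the counts. It was male, female and female in Maf.flox replicates 1, 2 and 3, and male, male and female in Vil.Cre Maf.flox. The sexes were thus mixed and not balanced between genotypes. Without Maf.flox replicate 3, 7 members were called, each lower (Slc25a15, Slc25a4, Slc25a36, Slc25a51, Slc25a22, Slc25a34 and Slc25a48), with 701 of 14029 genes called. No member was called without Maf.flox replicate 1 or 2 (0.221 and 0.0856% of all genes) or with any 1 Vil.Cre Maf.flox library left out (0.0852, 0.163 and 0.0570% for replicates 1, 2 and 3).

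Levels per gene length differed widely within the family. On the FPKM scale (fragments scaled to gene length and library size, which allows levels of different genes to be set side by side), Slc25a5 led with 884 ± 110 (SD, n = 6 libraries). This gene encodes the ADP/ATP carrier ANT2, which exchanges matrix ATP for cytosolic ADP. It was followed by the phosphate carrier Slc25a3 at 159 ± 15.2 FPKM, the ATP-Mg/phosphate carrier Slc25a24 at 93.1 ± 12.9 and the citrate carrier Slc25a1 at 83.9 ± 10.5 (SD, n = 6). Slc25a24 and Slc25a1 overlapped within their spread. Next in order stood Slc25a39, a glutathione carrier, at 69.6 ± 3.75 FPKM, the dicarboxylate carrier Slc25a10 at 58.9 ± 6.53 and the oxoglutarate/malate carrier Slc25a11 at 56.3 ± 3.52 (SD, n = 6), the last 2 of which overlapped. Slc25a5 alone made up 52.5 to 56.0% of the summed FPKM of the family in each library. Of the 42 members, 16 had a mean above 10 FPKM, 17 lay between 1 and 10, and 9 lay below 1.

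**Figure D1:**
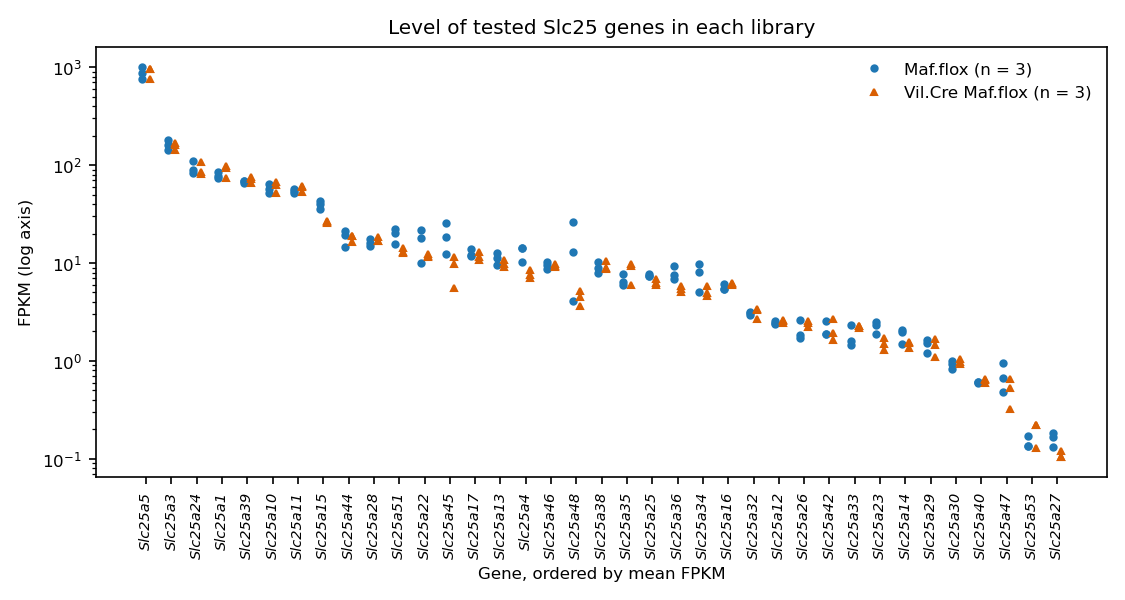
FPKM of 37 tested Slc25 genes in each library (log axis), ordered by mean level, with circles for the 3 Maf.flox and triangles for the 3 Vil.Cre Maf.flox libraries. Slc25a5 lies above the rest in every library, and the 2 genotypes overlap for each of the 7 highest genes.

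The summed FPKM of the family was 1866, 1639 and 1452 in controls against 1699, 1734 and 1416 in Vil.Cre Maf.flox, which overlapped (exact permutation p = 0.9, two-sided). With 3 libraries against 3 this test cannot give a p below 0.1.

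Carriers of adenine nucleotides and phosphate included both the highest members and some of those with the smallest p. Slc25a5 had 1662, 1439 and 1265 CPM in the Maf.flox controls against 1563, 1582 and 1227 CPM in Vil.Cre Maf.flox. The groups overlapped across their range, and the log2 fold change was 0.00 with a 95% interval of -0.36 to 0.37. Slc25a3, which brings in the phosphate needed to make ATP, had 995, 903 and 796 CPM against 932, 893 and 779 CPM. Its groups overlapped as well, with a log2 fold change of -0.05 (95% interval -0.36 to 0.26). For Slc25a24, the values were 375, 312 and 287 CPM in the Maf.flox controls against 294, 374 and 278 CPM in Vil.Cre Maf.flox. These overlapped too, with a log2 fold change of -0.04 (95% interval -0.39 to 0.30). A p that misses the threshold does not show that these 3 genes were alike in both genotypes, and the intervals give the differences that the data allow.

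The second ADP/ATP carrier, Slc25a4 (ANT1, known as the main form in heart and skeletal muscle), had 33.4, 34.1 and 24.1 CPM in the Maf.flox controls against 16.5, 19.9 and 17.8 CPM in Vil.Cre Maf.flox. Each Vil.Cre Maf.flox library lay below each control. The log2 fold change was -0.76 (SE 0.155, adjusted p = 0.0736 by edgeR), so that the gene was not called. Slc25a4 made up 1.39, 1.63 and 1.32% of the FPKM of the Slc25a4 and Slc25a5 pair in Maf.flox and 0.732, 0.873 and 1.00% in Vil.Cre Maf.flox (exact permutation p = 0.1, two-sided, the smallest that 3 against 3 allows). Slc25a5 thus held nearly all ADP/ATP carrier RNA of this pair in each library. Testis-type Slc25a31 (ANT4) had 0 or 1 counts per library and was not tested.

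The other ATP-Mg/phosphate carriers, which load or unload the matrix pool of adenine nucleotides, were lower in level than Slc25a24. Slc25a23 had 9.80, 13.4 and 12.5 CPM in the Maf.flox controls against 7.81, 6.81 and 8.94 CPM in Vil.Cre Maf.flox. Slc25a25 had 57.9, 61.5 and 58.3 CPM in the Maf.flox controls against 46.3, 49.3 and 53.7 CPM in Vil.Cre Maf.flox. In both genes the genotypes did not overlap, with log2 fold changes of -0.60 and -0.25 (adjusted p = 0.161 and 0.236 by edgeR). Exons of Slc25a23 and Slc25a25 overlap those of genes on the opposite strand (168 bases of Gm17168 and 379 bases of Naif1), and whether counting used strand is not given in the sources used here, so reads of the partner cannot be told apart.

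The pyrimidine nucleotide carrier Slc25a36 (GRCm38 chromosome 9, 97074961 to 97111157) had 71.9, 91.3 and 66.4 CPM in the Maf.flox controls against 48.9, 55.8 and 51.9 CPM in Vil.Cre Maf.flox. The groups did not overlap, and the log2 fold change was -0.55 (SE 0.132, adjusted p = 0.0974 by edgeR). Its close relative Slc25a33, at 2.81 to 4.46 CPM, had a log2 fold change of 0.29 (adjusted p = 0.597 by the same test). Slc25a33 made up 17.6, 13.5 and 25.4% of the FPKM of the pair in Maf.flox and 30.7, 28.4 and 28.3% in Vil.Cre Maf.flox (exact permutation p = 0.1, two-sided). This share rests on 54 to 94 counts of Slc25a33 per library, and its exons share 281 bases with Gm13068 on the opposite strand. Of the 8 nucleotide and phosphate carriers tested, 6 lay below 0, with a median of -0.15.

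Among amino acid carriers the ornithine carrier Slc25a15 (ORC1; GRCm38 chromosome 8, 22375551 to 22398597) had the smallest p of the family. It moves ornithine into the matrix, where intestinal cells can turn it into citrulline. Slc25a15 had 226, 248 and 202 CPM in the Maf.flox controls against 145, 149.7 and 149 CPM in Vil.Cre Maf.flox. The highest Vil.Cre Maf.flox library lay well under the lowest control, and the Vil.Cre Maf.flox libraries were close together. The log2 fold change was -0.61 (SE 0.107), or 0.657 times the control level (95% interval 0.556 to 0.777 times), and the adjusted p was 0.0540 by edgeR, just above the threshold. It was called in 5 of 14 alternative fits, with log2 fold changes of -0.68 to -0.52 and adjusted p of 7.27e-05 to 0.259 over them. Slc25a2, the other ornithine carrier, had 0 to 2 counts per library.

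Glutamate enters the matrix through Slc25a22, which had 128, 109 and 60.4 CPM in the Maf.flox controls against 73.5, 70.7 and 68.0 CPM in Vil.Cre Maf.flox. Maf.flox replicate 3 lay below the Vil.Cre Maf.flox libraries here, and the other controls lay above them. The log2 fold change was -0.49 (adjusted p = 0.382 by edgeR), and without Maf.flox replicate 3 it was -0.75 (adjusted p = 0.00921 by the same test). Leaving out Maf.flox replicate 1 instead gave -0.25 (adjusted p = 0.712 by edgeR), so the size of the difference depended on which control was kept. The 2 aspartate/glutamate carriers of the malate-aspartate shuttle, which passes reducing equivalents from cytosolic NADH to the matrix, had log2 fold changes of -0.20 (citrin, Slc25a13) and 0.02 (aralar, Slc25a12). Citrin was the higher of the pair, and Slc25a12 made up 15.9 to 22.0% of their summed FPKM. Slc25a38 (glycine), Slc25a44 (branched-chain amino acids) and Slc25a29 (basic amino acids) had log2 fold changes of 0.04, -0.03 and -0.05. Of the 7 amino acid carriers tested, 5 lay below 0 and the median was -0.05.

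Enzymes on either side of these carriers were read from a list of 17 genes of glutamine, ornithine and citrulline metabolism, of which 0 were called, 9 lay above 0 and 8 below, with a median of 0.01. Glutamate dehydrogenase (Glud1), which turns glutamate into oxoglutarate in the matrix, had 619 ± 66.2 CPM in the Maf.flox controls against 408 ± 61.3 CPM in Vil.Cre Maf.flox (SD over 3 libraries each). Its log2 fold change was -0.60 (adjusted p = 0.0995 by edgeR), and it was not called. The matrix enzymes that use the substrate of Slc25a15, Otc and the ornithine-forming Oat, had log2 fold changes of -0.06 and -0.14.

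**Figure D2:**
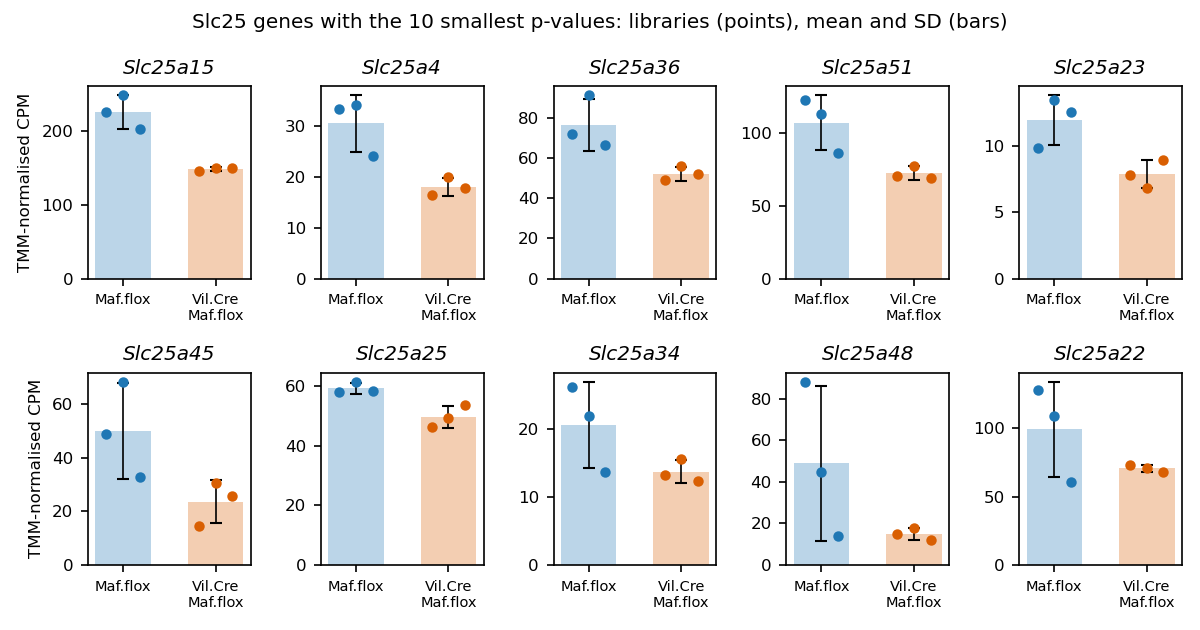
TMM-normalised CPM of the 10 Slc25 genes with the smallest p, with points for libraries, bars for the mean and whiskers for the SD (n = 3 per genotype). Slc25a15, Slc25a4, Slc25a36, Slc25a51, Slc25a23, Slc25a45 and Slc25a25 show no overlap between genotypes, while in Slc25a34, Slc25a48 and Slc25a22 Maf.flox replicate 3 (the third blue point) lies within or below the range of the Vil.Cre Maf.flox libraries.

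The carboxylate carriers had log2 fold changes between 0.07 and 0.16. Slc25a1 exports the citrate from which cytosolic acetyl-CoA for lipid synthesis is made, and had 185.0, 169.6 and 161 CPM in the Maf.flox controls against 212, 204 and 159 CPM in Vil.Cre Maf.flox. Slc25a10 had 218, 199.6 and 179.9 CPM in the Maf.flox controls against 216, 233 and 177 CPM in Vil.Cre Maf.flox. Both genes overlapped between genotypes, with log2 fold changes of 0.16 (95% interval -0.14 to 0.45) and 0.07 (-0.23 to 0.36). Slc25a11, which exchanges oxoglutarate for malate in the malate-aspartate shuttle, had a log2 fold change of 0.07 (95% interval -0.15 to 0.30). In a list of 19 enzymes of this shuttle and of citrate use, 0 were called and the median was -0.02. Pck1, an enzyme of gluconeogenesis, had the smallest p there, with a log2 fold change of -2.50 (adjusted p = 0.0622 by edgeR).

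Of the 10 carriers of cofactors, iron and glutathione, 6 lay above 0 and 4 below, with a median of 0.05. Slc25a51, which imports NAD into the matrix, lay furthest from 0. It had 123, 113 and 86.5 CPM in the Maf.flox controls against 71.0, 77.9 and 69.2 CPM in Vil.Cre Maf.flox, without overlap. The log2 fold change was -0.57 (SE 0.138, adjusted p = 0.101 by edgeR). An annotated microRNA gene, Gm25692, shares 125 exon bases with Slc25a51 on the same strand. The glutathione carrier Slc25a39 had 190.0, 184 and 191 CPM in the Maf.flox controls against 208, 199.6 and 180.3 CPM in Vil.Cre Maf.flox, which overlapped, with a log2 fold change of 0.06 (95% interval -0.17 to 0.28). Its relative Slc25a40 made up under 1% of the pair's FPKM (0.860 to 0.904% over the 6 libraries). The S-adenosylmethionine carrier Slc25a26 had a log2 fold change of 0.21, with the iron carrier mitoferrin-2 (Slc25a28) at 0.10, the folate and FAD carrier Slc25a32 at 0.04 and the coenzyme A carrier Slc25a42 at -0.03.

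Less described members held the largest differences and also the largest spread between controls. Slc25a48 (GRCm38 chromosome 13, 56438355 to 56474239) had 88.3, 44.8 and 13.8 CPM in the Maf.flox controls against 15.1, 17.7 and 12.1 CPM in Vil.Cre Maf.flox. Its controls had an SD of 1.35 on the log2 CPM scale, the largest of the members tested, against 0.272 in Vil.Cre Maf.flox, and Maf.flox replicate 3 lay within the Vil.Cre Maf.flox range. The log2 fold change was -1.72 (95% interval -3.40 to -0.03, adjusted p = 0.299 by edgeR), and without Maf.flox replicate 3 it was -2.16 (adjusted p = 0.0155 by the same test). Without Maf.flox replicate 1 it was -0.96. Slc25a45 had 48.7, 68.3 and 32.8 CPM in the Maf.flox controls against 14.7, 30.5 and 25.6 CPM in Vil.Cre Maf.flox. Its genotypes did not overlap, with a log2 fold change of -1.08 (SE 0.339, adjusted p = 0.194 by edgeR). Slc25a34 had 26.2, 21.9 and 13.7 CPM in the Maf.flox controls against 13.2, 15.6 and 12.3 CPM in Vil.Cre Maf.flox, and Maf.flox replicate 3 again lay within the Vil.Cre Maf.flox range. Its log2 fold change was -0.59 (adjusted p = 0.249 by edgeR), and without Maf.flox replicate 3 it was -0.81 (adjusted p = 0.0268 by the same test). Leaving out Maf.flox replicate 1 instead gave -0.36 (adjusted p = 0.536 by edgeR). Slc25a46, Slc25a35 and Slc25a53 had values of -0.03, 0.29 and 0.36, and Slc25a47 one of -0.50. Exons of Slc25a35 share 1151 bases with Rangrf on the other strand.

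**Figure D3:**
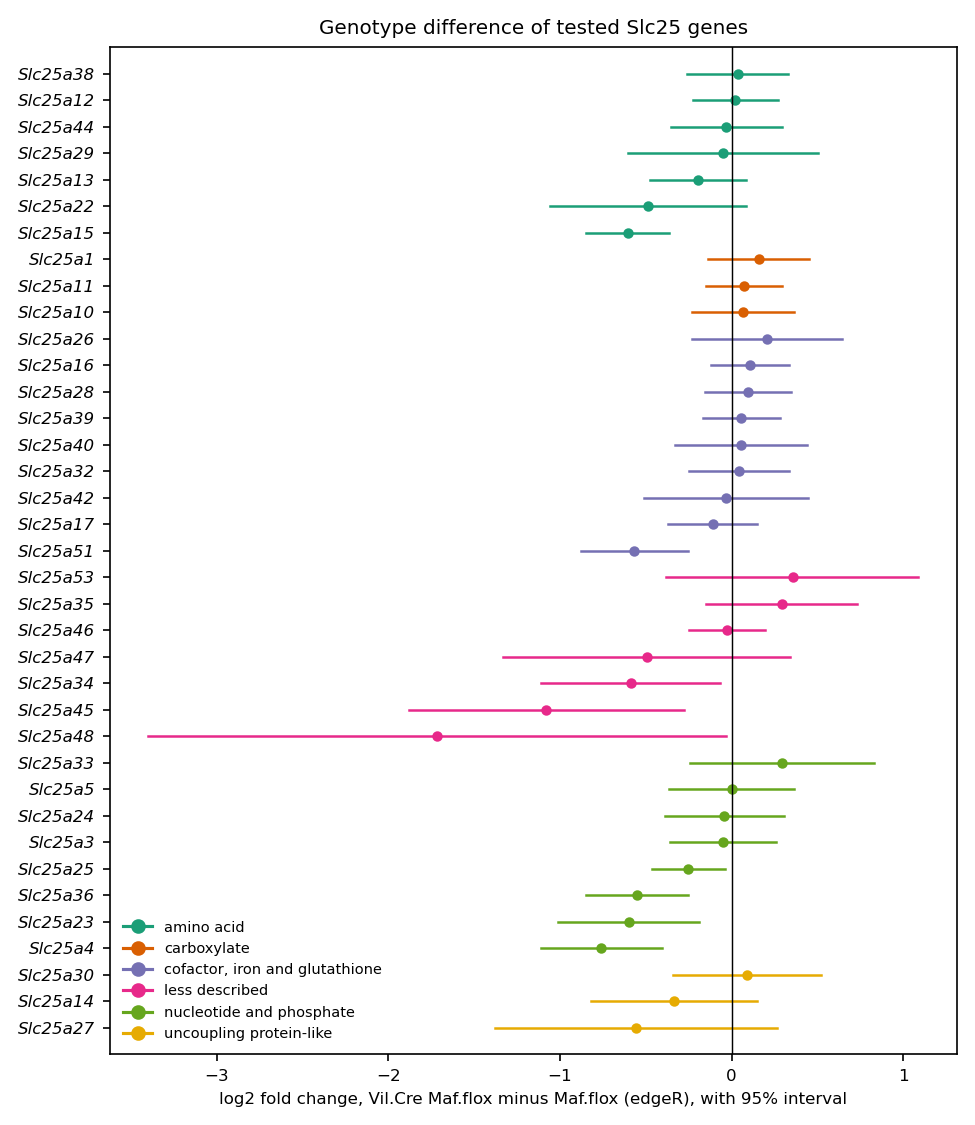
Log2 fold change (Vil.Cre Maf.flox minus Maf.flox, edgeR) of 37 tested Slc25 genes, with 95% intervals as lines and role groups as colours. The widest interval is that of Slc25a48 (-3.40 to -0.03), and those of the 3 carboxylate carriers lie within 0.5 of 0.

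Sequence just before the transcription start was searched because c-Maf is known to bind DNA at Maf recognition elements. Shown are Slc25a48, which had the log2 fold change furthest from 0 but overlapping genotypes, and Slc25a34 and Slc25a5, which hold a match. None of these 3 was called, and they were chosen after their values were seen. The windows are the 250 bases before the most upstream RefSeq start (GRCm38.p6), written 5′ to 3′ on the strand of the gene, at chr13:56438105-56438354 (plus strand), chr4:141623835-141624084 (minus strand) and chrX:36795347-36795596 (plus strand). Capitals mark a match to the half-site TGCTGA of a Maf recognition element on either strand.
Slc25a48: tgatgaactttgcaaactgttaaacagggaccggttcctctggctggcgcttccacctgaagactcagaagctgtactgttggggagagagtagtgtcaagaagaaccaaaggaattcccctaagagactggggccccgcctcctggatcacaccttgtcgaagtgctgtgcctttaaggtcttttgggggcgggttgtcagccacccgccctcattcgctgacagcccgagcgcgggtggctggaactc
Slc25a34: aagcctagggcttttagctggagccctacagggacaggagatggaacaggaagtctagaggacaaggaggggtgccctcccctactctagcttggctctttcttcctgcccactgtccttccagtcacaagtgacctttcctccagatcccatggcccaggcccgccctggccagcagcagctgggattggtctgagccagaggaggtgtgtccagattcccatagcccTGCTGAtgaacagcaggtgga
Slc25a5: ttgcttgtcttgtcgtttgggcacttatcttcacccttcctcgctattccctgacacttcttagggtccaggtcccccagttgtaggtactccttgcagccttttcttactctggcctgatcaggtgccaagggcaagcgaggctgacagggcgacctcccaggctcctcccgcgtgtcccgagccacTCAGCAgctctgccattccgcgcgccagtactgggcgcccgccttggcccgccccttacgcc
The half-site was found 21 bases before the start in Slc25a34 and 62 bases before it, on the opposite strand, in Slc25a5, and not in the window of Slc25a48. Nor was it in the windows of Slc25a15, Slc25a4, Slc25a36, Slc25a23, Slc25a45 and Slc25a25, whose genotypes did not overlap, while Slc25a51 and Slc25a27 had no window to search. By GENCODE M21, 222 of the 250 window bases in Slc25a4, 116 in Slc25a36 and 14 in Slc25a45 are exon of the gene itself. These windows, like some of other members, thus lie partly or mostly in transcribed sequence and not before it. All 250 window bases in Slc25a25 are exon of Naif1, and 151 in Slc25a15 are exon of 1810012K16Rik, both on the opposite strand. Windows were available for 33 of 42 members, and 3 of these (9.09%; Slc25a16, Slc25a34 and Slc25a5) held the half-site, against 15.8% of the windows of 27025 genes. The full 13-base element (T-MARE), which contains the half-site, was in 0 member windows and in 1 of all windows. Other motifs searched on both strands, the NRF1 palindrome, TGATGNAAT (bound by ATF4 complexes) and TCAAGGTCA (bound by estrogen-related receptors), were in 0 member windows and in 0.777, 0.825 and 0.366% of all windows. A match is a description of letters and not a binding site, and the median GC content was 59.6% in the member windows and 52% in all.

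The uncoupling protein-like members were low, at 4.84 CPM or less in each library. Slc25a14 and Slc25a30 had log2 fold changes of -0.34 and 0.09. Slc25a27 had 0.715, 0.521 and 0.664 CPM in the Maf.flox controls against 0.406, 0.411 and 0.471 CPM in Vil.Cre Maf.flox, which did not overlap, with a log2 fold change of -0.56 (adjusted p = 0.494 by edgeR). Its raw counts, 17, 10 and 14 against 8, 7 and 11, did overlap, so the separation rests on the scaling of a few reads. Of the members tested, 8 (21.1%) had each Vil.Cre Maf.flox library below each control, where 10.5% of all genes tested did, and 0 had each above, where 10.1% did. The 4 members under the filter were Slc25a18, Slc25a2, Slc25a31 and Slc25a43, with 0 to 11 counts per library, and differences in them were not detectable at this depth. Slc25a43 lies 18448 bases from Slc25a5 on chromosome X, so that one of the lowest members (0.130 FPKM) neighbours the highest.

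Across libraries, members differed in how closely they followed the enterocyte markers. Set to 100% in Maf.flox replicate 1, the summed enterocyte markers stood at 95.2 and 47.9% in the other controls and at 32.2, 42.1 and 25.5% in Vil.Cre Maf.flox. Slc25a22 stood at 84.9 and 47.1% in the other controls and 57.3, 55.1 and 53.0% in Vil.Cre Maf.flox, and Slc25a34 at 83.6 and 52.2%, then 50.4, 59.7 and 47.1%. In Slc25a15, by contrast, Maf.flox replicate 3 was at 89.6% and the Vil.Cre Maf.flox libraries at 64.1 to 66.3%. The part of cell makeup in these differences was not tested. Of the 38 members tested, 20 had their lowest control value in Maf.flox replicate 3. The share over all genes tested was not computed, so this count shows nothing particular to the members. Tuft cell markers summed to 34.5, 70.5 and 17.4 CPM in the Maf.flox controls against 14.3 to 15.5 CPM in Vil.Cre Maf.flox, and goblet cell markers to 15260 to 34020 and 15180 to 28880 CPM. Immune markers summed to 11.4 to 12.8 CPM in the Maf.flox controls against 14.1 to 28.7 CPM in Vil.Cre Maf.flox, with 5 of 9 under the filter. Of the 4 tested, 0 were called and 3 lay above 0. Ptprc lay below, at a log2 fold change of -1.86 (adjusted p = 0.319 by edgeR). The highest sum was that of Vil.Cre Maf.flox replicate 2. Itgam, with the smallest p of the 4, had 5.72, 7.18 and 7.49 CPM in the Maf.flox controls against 15.3, 11.6 and 10.8 CPM in Vil.Cre Maf.flox. Its log2 fold change was 0.89 (adjusted p = 0.0795 by edgeR). Igha had 3.03, 2.19 and 2.89 CPM in the Maf.flox controls against 3.55, 11.5 and 1.93 CPM in Vil.Cre Maf.flox replicates 1, 2 and 3.

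**Figure D4:**
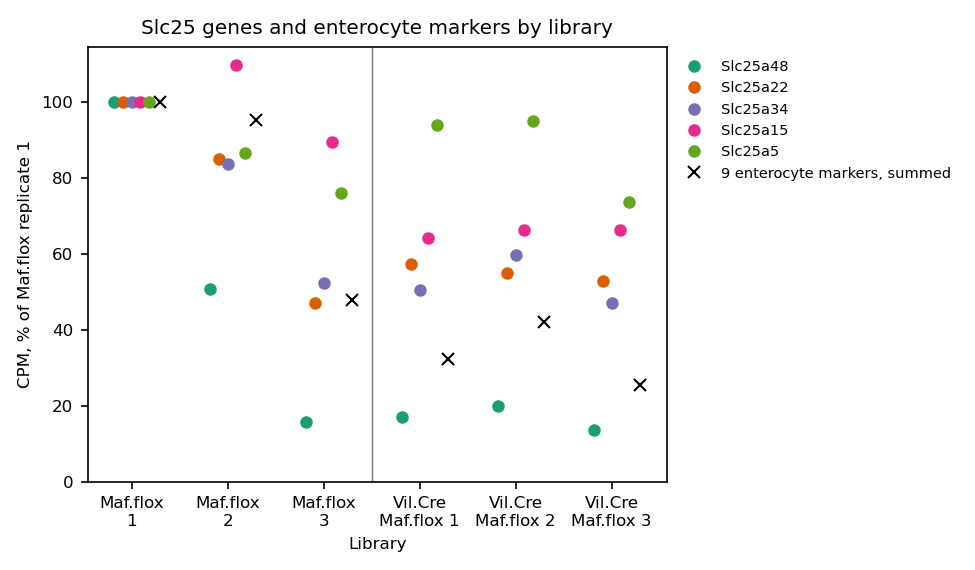
CPM in each library as a percentage of Maf.flox replicate 1 for 5 Slc25 genes (circles) and the sum of 9 enterocyte markers (crosses). Slc25a48, Slc25a22 and Slc25a34 are low in Maf.flox replicate 3 (15.7, 47.1 and 52.2%) as the enterocyte markers are (47.9%), while Slc25a15 is at 89.6% there.

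Members of the carrier family whose names do not carry Slc25a, and other transporters of the mitochondrial membranes, gave no call either. Uncoupling protein Ucp2 had 490 ± 49.7 CPM in the Maf.flox controls against 515 ± 58.5 CPM in Vil.Cre Maf.flox, Mtch1 had 179 ± 4.95 and 191 ± 18.04 CPM, and Mtch2, an insertase of the outer membrane, had 337 ± 6.42 and 400 ± 27.8 CPM (SD over 3 libraries each). Their log2 fold changes were 0.07, 0.10 and 0.25, and Ucp1 and Ucp3 were under the filter. Of 19 other mitochondrial membrane transporters tested, 0 were called, 12 lay above 0 and the median was 0.09. The 2 with the smallest p were Sfxn1, a mitochondrial serine transporter, at -0.42 and Letm1, an inner membrane cation exchanger, at 0.29 (adjusted p = 0.162 and 0.185 by edgeR).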

How the data were processed

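RNA of sorted epithelial cells was measured in 6 libraries, and both count and FPKM columns were deposited by the authors in 1 table. The submitters' processing notes name GRCm38 (mm10), featureCounts 1.5.0-p3, HISAT2 2.0.5 and DESeq2. The deposited counts are raw whole numbers. In the deposited FPKM, each count is scaled to the gene's length and to a library size of 0.953 to 1.07 times the summed counts, and FPKM served only to compare levels.

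The test was edgeR 4.0.16 under R 4.3.3 (filterByExpr with minimum count 10, TMM scaling, robust quasi-likelihood F test, genotype as the only term, Benjamini-Hochberg adjustment over 13740 genes). The 95% intervals used the standard error and degrees of freedom of that fit. Positions in the table equalled those of GENCODE M21 for 39 of 42 members. Alternatives were DESeq2 1.42.0, limma-voom (limma 3.58.1), RLE and upper quartile scaling, a stricter filter or none, FDR 0.1 and 0.01, a replicate block, a term for sex read from the counts, and each library left out. The edgeR fit was tested on simulated data, with planted differences larger than those of most members, so smaller ones were not covered. No library was a copy of another (chi-square per gene of 36 to 132 between replicates). Depth was 17464355 to 24802525 counts.

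The members and lists were chosen with earlier results of these data known. Named with values per library were the members called, the 10 with the smallest p, the 6 with the highest FPKM and those without overlap between genotypes, and from each related list at most the 2 with the smallest p. Otc, Oat and the 3 carriers Ucp2, Mtch1 and Mtch2 were named beside these for their roles, and Igha for its values per library. Further members were given by log2 fold change, and Slc25a33, Slc25a12 and Slc25a40 also by their share of a pair. Some genes that the rule takes or the members include are not reported here by name, though counts and medians include them.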

Additional observations from a re-analysis of the deposited data

How the results depend on the processing

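With the FDR at 0.05 unless stated, 75 genes and 0 Slc25 members were called in all. Counts of genes and members were 103 and 1 with upper quartile scaling, 365 and 4 with no filter, 760 and 5 with DESeq2, 372 and 3 at FDR 0.1 and 440 and 4 with a replicate block. Limma-voom called 30 genes, the sex term 38 and FDR 0.01 2, with 0 members in each. Leaving out 1 library gave 8 to 701 genes and 0 to 7 members: 701 genes and 7 members (Slc25a15, Slc25a22, Slc25a34, Slc25a36, Slc25a4, Slc25a48 and Slc25a51) without Maf.flox replicate 3, and 0 members without any other library. The members called under these alternatives were all lower in Vil.Cre Maf.flox. The cause was not tested. The 10 members with the smallest p kept a negative log2 fold change in the 14 alternative fits. They were picked by the main fit to these same libraries, so a kept sign is no independent support. The median over members ran from -0.09 to 0.01 with 1 library left out, so its sign was not fixed. Signs of highly expressed members near 0 turned: Slc25a5 was -0.0013 with the stricter filter, and with the sex term Slc25a5 was -0.11 and Slc25a10 -0.029. With 1 library left out, Slc25a5 ran from -0.089 to 0.12, Slc25a10 from -0.0017 to 0.17, Slc25a3 from -0.13 to 0.042 and Slc25a24 from -0.16 to 0.085. In the pairing check, deviations from the group means correlated at 0.0917, -0.0256 and 0.269 for numbers 1, 2 and 3, and 3 of 6 libraries correlated best with their own number. The libraries share only a number, and the replicate block (4 members, 440 genes) is an alternative only. Slc25a27 was not tested under the stricter filter.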

Other observations

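Genes of the import path that inserts carriers into the inner membrane were listed apart from the carriers themselves. Of 14 such genes tested, 12 had a log2 fold change above 0, where 48.4% of all genes tested did, with a median of 0.21, and 0 were called. The small Tim chaperone Timm8b had the smallest p, with 37.3 ± 1.22 CPM in the Maf.flox controls against 51.1 ± 6.40 CPM in Vil.Cre Maf.flox (SD over 3 libraries each) and a log2 fold change of 0.45. Tomm40, the pore of the outer membrane, had 65.4 ± 11.1 and 88.1 ± 10.1 CPM and a log2 fold change of 0.43. Their adjusted p was 0.106 and 0.190 by edgeR.

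Of 16 genes of mitochondrial biogenesis and protein quality control, 12 lay above 0 with a median of 0.05, and 0 were called. The coactivator Ppargc1a, which promotes mitochondrial biogenesis, had the smallest p, with 32.5 ± 3.37 CPM in the Maf.flox controls against 25.02 ± 1.57 CPM in Vil.Cre Maf.flox and a log2 fold change of -0.38. The prohibitin Phb stood at 117 ± 17.5 and 152 ± 16.2 CPM, with a log2 fold change of 0.38. Their adjusted p was 0.162 and 0.217 by edgeR.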
